A study of Homo sapiens with 6 samples.

Results

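The genes described here encode chaperones of the endoplasmic reticulum (ER), heat shock proteins with their regulators, and the stress transcription factor ATF4 with its targets. Exon arrays measured their transcripts with and without Klotho, a circulating and membrane protein linked to ageing, in the human line MO3.13, labelled as oligodendroglioma. A list of 42 genes was taken by name: 16 of the ER, 12 of the heat shock response and 14 of the ATF4 response. A gene was read from the probe set paired with it alone, and 38 of the 42 had 1, among 14232 such genes on the arrays. HSP90B1, PDIA3, HSPA9 and HSPB8 were not measured in this sense, since each of their probe sets also names another gene. That left 14 ER genes, 10 heat shock genes and 14 ATF4 genes, and none of them had a second probe set of its own. PDIA6, HSPD1 and HSPE1 each have, besides their own, a further probe set that names several genes and was not used.

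Cells of both groups were grown in medium with 10% fetal bovine serum. The control group held 3 arrays of MO3.13 cells without Klotho. The Klotho group held 3 arrays of the same line exposed to recombinant mouse Klotho at 0.4 µg/mL for 3.5 h, in medium free of serum. No serum-free medium is named for the controls, so the removal of serum and the addition of Klotho cannot be told apart in any value below. Separate cultures behind the 3 arrays of a group are not stated, and p-values then measure only the spread among these 6 samples, a spread that may be technical. In a bulk extract, fewer cells of a type and less RNA per cell cannot be told apart. Of 8 measured defining markers of oligodendrocytes, 6, among them MBP, MOG, SOX10 and OLIG2, lay below the median probe set, and CNP and CLDN11 lay above it. All 4 measured skeletal muscle markers, DES, MYOD1, MYOG and CHRNA1, lay above it. Each array gave 22011 log2 values, with array medians between 6.36 and 6.47. Pairs of arrays correlated across probe sets at r = 0.987 to 0.991 within groups and 0.985 to 0.991 between them.

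Cells answer damaged or unfolded proteins through separate programmes. In the ER, the sensors ATF6, IRE1 (gene ERN1) and PERK (gene EIF2AK3) detect unfolded proteins and raise the transcription of chaperones, folding enzymes and degradation factors, partly through the transcription factor XBP1. In the cytosol and nucleus, HSF1 binds heat shock elements and raises chaperones of the HSP70, HSP40, HSP60 and small heat shock protein families. PERK and related kinases, which also sense lack of amino acids or haem and viral RNA, phosphorylate eIF2α, and this favours the translation of ATF4. ATF4 in turn raises genes of amino acid synthesis and import and of the feedback on the pathway. Myelin-forming cells make large amounts of membrane protein in the ER, and the ER programme is well studied in them.

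Response elements of these programmes can be read in the promoters of some members but not of most, and a few are shown. RefSeq promoter windows (build GRCh38.p14, 250 bases before to 50 after a start) were at hand for 39 of the 42 genes, in 56 windows, since some genes have several starts. PDIA3, HSF1 and SLC7A11 had none. The ER stress element, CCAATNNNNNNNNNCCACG on either strand, stood in windows of 7 of the 15 ER genes (CALR, CANX, CRELD2, HSP90B1, HSPA5, PDIA6 and XBP1), against 25 of all 27305 genes in the table (0.0916%), and in 0 of 11 heat shock and 0 of 13 ATF4 genes. The stretches below are given 5′ to 3′ on the strand of the gene, with the fixed bases of the element in capitals; in CRELD2 and CALR the element lies on the opposite strand.
HSPA5, chr9:125241386-125241414, minus strand: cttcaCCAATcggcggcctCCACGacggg
XBP1, chr22:28800598-28800626, minus strand: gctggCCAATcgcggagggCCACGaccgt
PDIA6, chr2:10812848-10812876, minus strand: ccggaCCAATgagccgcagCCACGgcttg
CRELD2, chr22:49918549-49918577, plus strand: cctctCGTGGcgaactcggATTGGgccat
CALR, chr19:12938379-12938407, plus strand: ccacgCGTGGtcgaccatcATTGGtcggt

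A heat shock element of 3 units, GAANNTTCNNGAA or TTCNNGAANNTTC, stood in windows of HSPA8 and HSPD1, which is 2 of 11 heat shock genes, against 166 of all genes (0.608%) and 0 of the ER and ATF4 genes. HSPD1 is shown because its difference was the largest among the members. It is transcribed head to head with HSPE1, and the stretch lies 223 to 250 bases before 1 of the 2 HSPD1 starts in the table. The HSPE1 window itself, chr2:197500129-197500428, does not reach it. The 2 matches in HSPD1 overlap each other.
HSPD1, chr2:197500063-197500090, minus strand: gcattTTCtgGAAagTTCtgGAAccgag
HSPA8, chr11:123062349-123062371, minus strand: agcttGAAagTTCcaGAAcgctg
HSPA8, chr11:123062174-123062196, minus strand: gccccTTCtgGAAggTTCtaaga

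The C/EBP-ATF response element, through which ATF4 binds together with C/EBP proteins, was searched as TGATGNAA on either strand. It stood in windows of 5 of the 13 ATF4 genes (ASNS, ATF3, CHAC1, SLC3A2 and SLC7A1), against 1217 of all genes (4.46%), in 1 of 15 ER genes (HERPUD1) and in 0 of 11 heat shock genes. The cyclic AMP response element TGACGTCA stood in the window of PPP1R15A alone among the members, against 614 of all genes (2.25%). No member held more than 1 kind of element. A match is a run of letters and not a measured binding site.
ASNS, chr7:97872464-97872481, minus strand: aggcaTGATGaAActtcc
CHAC1, chr15:40953257-40953274, plus strand: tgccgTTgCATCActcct
HERPUD1, chr16:56931961-56931978, plus strand: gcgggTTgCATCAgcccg

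On these arrays, the 38 measured transcripts of the ER, heat shock and ATF4 lists differed by small amounts between control and treated cells. The 38 differences, treated minus control, ran from -0.34 (HSPD1, the mitochondrial HSP60 chaperonin) to 0.15 (ASNS, asparagine synthetase) on the log2 scale. None passed: 0 of the 38 had a limma adjusted p under 0.05 (the smallest was 0.998), as had 0 of the 22011 probe sets (0%). At an unadjusted p under 0.05 there were 2, HSPD1 and the cationic amino acid transporter gene SLC7A1, against 2.07% of all genes. Both were lower in treated cells, as were 1.11% of all genes at that p. With 38 members, this share of 5.26% rests on 2 genes.

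The arrays bounded the differences narrowly, for the members as for most genes. For 37 of the 38 members, against 91.7% of all genes, the 95% interval stayed inside a 1.5-fold change up or down. For all 38 it stayed inside a 2-fold change, as it did for 14047 of all 14232 genes. The exception to the 1.5-fold bound was DNAJC3, an ER co-chaperone that restrains PERK. Standard errors of the differences ran from 0.07 to 0.20, with a median of 0.09 against 0.11 over all genes (log2). The intervals are each for 1 gene alone. Like the p-values, they rest on a spread among arrays that may be technical, and so may not bound the difference between separate cultures. No member lay below the lower quartile of mean signal (4.70).

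**Figure D1:**
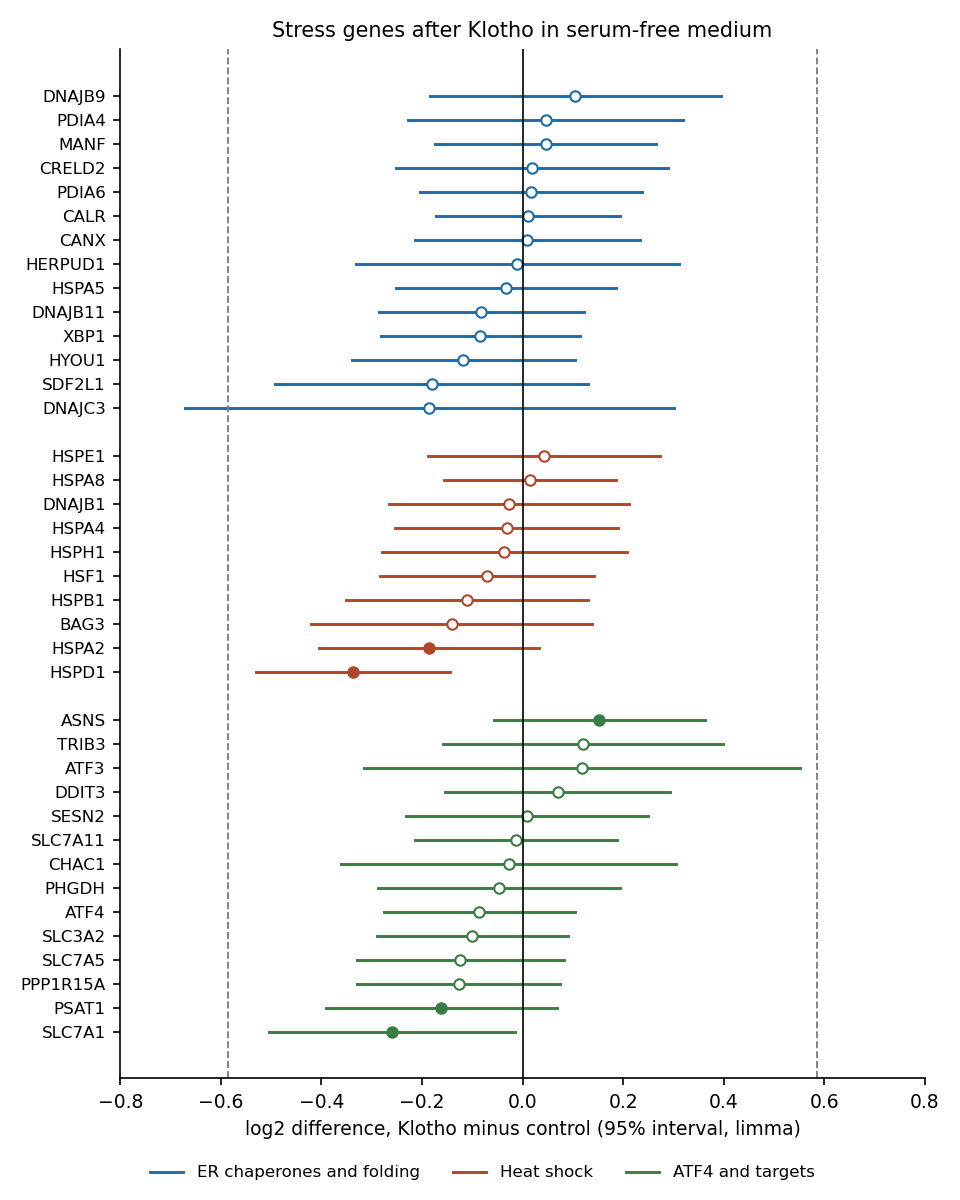
Difference in log2 signal, treated minus control, for each of the 38 measured genes, with its 95% interval from limma (3 arrays per group); colours mark the ER, heat shock and ATF4 lists, filled points are genes whose groups do not overlap, and dashed lines mark a 1.5-fold change. Intervals of 37 genes lie between the dashed lines, that of DNAJC3 crosses the lower one, and those of HSPD1 and SLC7A1 do not reach 0.

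Control and treated arrays did not overlap for 5 members. In 4 of them (HSPD1, SLC7A1, HSPA2 and PSAT1; 10.5% of the members) the treated arrays were lower, against 5.3% of all genes, and in ASNS (2.63% of the members) they were higher, against 2.59% of all genes. With 24 of 38 members lower, the share was close to that of all genes, of which 62.6% were lower as deposited. That share depended on the scaling of the arrays: it was 46.8% after quantile normalization, 42.7% after centring each array on its median and 50.3% after cyclic loess. Of the members, 22, 16 and 25 were lower under these scalings. The sign of the difference was the same under all 4 scalings for 27 of the 38 members: 10 ER, 6 heat shock and 11 ATF4 genes.

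The ER list was evenly divided. Of 14 measured genes 7 were lower and 7 higher, with a median difference of 0.00 against -0.03 over all genes, and 5 to 8 were lower under the other scalings. The control and treated arrays overlapped for every one of the 14, and 0 had an unadjusted p under 0.05.

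HSPA5 (BiP or GRP78), the main HSP70 of the ER lumen and the standard reporter of ER stress, read 11.76, 11.83 and 11.76 on the control arrays and 11.61, 11.81 and 11.83 on the treated arrays. Treated array 1 was the lowest of the 6 arrays, treated array 2 lay among the controls, and treated array 3 stood level with the highest control. The difference was -0.03 (95% interval -0.25 to 0.19), which in fold terms is 0.978 with an interval of 0.84 to 1.14. XBP1, the transcription factor spliced by IRE1, read 9.06, 8.89 and 8.91 in control and 8.83, 8.92 and 8.86 in treated cells, a difference of -0.08 (95% interval -0.28 to 0.11). A probe set for the whole transcript does not tell its spliced from its unspliced form. DNAJB9 (ERdj4), a co-chaperone of BiP that XBP1 raises, read 6.82, 6.63 and 7.06 in control and 6.90, 6.99 and 6.95 in treated cells, so that the controls spanned the treated values. Its difference was 0.10 (95% interval -0.18 to 0.39), the highest of the ER list.

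HERPUD1, a membrane protein of ER-associated degradation, read 10.05 on control array 1, 9.64 and 9.70 on the other controls, and 9.72, 9.71 and 9.92 on the treated arrays. The high reading of control array 1 set the spread of that group (SD 0.22), and the difference was -0.01 (95% interval -0.33 to 0.31). SDF2L1, a stress-inducible partner of ER chaperones, read 7.36, 6.99 and 7.38 in control and 7.06, 7.17 and 6.97 in treated cells. It had the smallest p of the list (limma, unadjusted p = 0.21), with a difference of -0.18 (95% interval -0.49 to 0.13). Control array 2 stood with the treated arrays, and without it the difference was -0.31 (unadjusted p = 0.0219, adjusted p = 0.866 in limma).

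HYOU1, a large ER chaperone that acts as exchange factor for BiP, read 9.93, 9.72 and 9.71 in control and 9.60, 9.69 and 9.71 in treated cells. Apart from control array 1 these values lay close together, and the difference was -0.12 (95% interval -0.34 to 0.10). DNAJC3, named above for its wide interval, read 9.36, 8.90 and 8.83 in control and 8.54, 8.85 and 9.15 in treated cells. Both groups spread widely (SD 0.29 and 0.30), control array 1 and treated array 1 standing at the ends. The difference was -0.19 (95% interval -0.67 to 0.30), or -0.02 without control array 1 and -0.03 without treated array 1.

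CALR (calreticulin), a lectin chaperone that holds new glycoproteins, read 12.28, 12.16 and 12.26 in control and 12.23, 12.22 and 12.29 in treated cells, a difference of 0.01 (95% interval -0.17 to 0.19). Its membrane-bound relative CANX (calnexin) read 12.23, 12.46 and 12.27 in control and 12.27, 12.32 and 12.39 in treated cells, all treated values within the control range, with a difference of 0.01 (95% interval -0.21 to 0.23). The disulfide isomerases PDIA4 and PDIA6 had differences of 0.05 and 0.02. DNAJB11 (ERdj3), a BiP co-chaperone, read 10.82, 10.63 and 10.76 in control and 10.67, 10.59 and 10.70 in treated cells. Treated array 2 lay below the controls and the other treated arrays among them, and the difference was -0.08 (95% interval -0.29 to 0.12). CRELD2 and MANF, small secreted or ER-resident proteins raised by ER stress, had differences of 0.02 and 0.05.

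**Figure D2:**
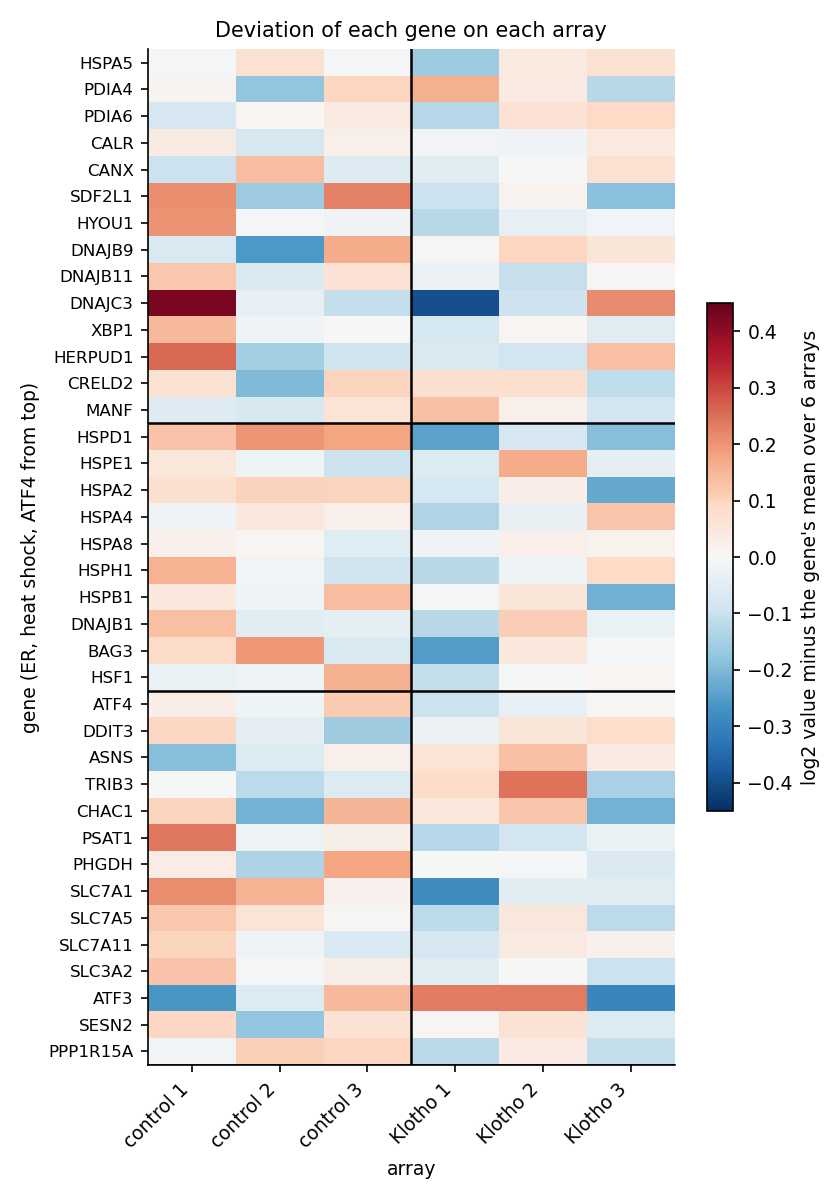
Heat map of the 38 measured genes (rows, in the order ER, heat shock and ATF4, separated by black lines) on the 6 arrays (columns, control left and Klotho right of the black line); the colour is the log2 value minus the mean of that gene over the 6 arrays. The row of HSPD1 is red on the 3 control arrays and blue on the 3 treated ones, and control array 1 holds the highest value of 15 genes and treated array 1 the lowest of 16.

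Among heat shock genes, HSPD1 stood lowest relative to control. Of 10 measured genes 8 were lower and 2 higher, with a median of -0.05, and after median centring 5 were lower and 5 higher (median 0.00). After quantile normalization and cyclic loess 9 were lower, with medians of -0.02 and -0.03. Without treated array 1, 5 of the 10 were lower (median -0.01).

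HSPD1 forms, with its lid HSPE1 (HSP10), the chamber in which mitochondrial proteins fold. HSPD1 read 7.49, 7.56 and 7.54 in control and 7.12, 7.28 and 7.17 in treated cells. The groups were apart, with every treated array below every control array. Means were 7.53 ± 0.04 and 7.19 ± 0.09 (log2, SD, n = 3), and the difference of -0.34 (95% interval -0.53 to -0.15) equals 0.791-fold, with an interval of 0.692 to 0.904. Its unadjusted p was 0.00476 in limma and its adjusted p over all probe sets 0.998. The unadjusted p stayed between 0.00314 and 0.0264 in all 17 alternative analyses, and the difference lay between -0.39 and -0.27, while no adjusted p was under 0.593. HSPD1 has processed pseudogenes of near-identical sequence, which a probe set assigned to it may also detect.

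HSPE1 read 8.76, 8.69 and 8.61 in control and 8.65, 8.88 and 8.67 in treated cells. These overlapped, with a difference of 0.04 (95% interval -0.19 to 0.27). Taken within each array, the HSPD1 value minus the HSPE1 value was -1.28, -1.13 and -1.08 in control and -1.53, -1.59 and -1.50 in treated cells. HSPD1 thus stood lower relative to HSPE1 on each treated array than on any control array, by -0.38 between the group means. It was computed because the genes share an intergenic region and a complex, but after their values had been seen, and was not tested.

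HSPA2, an HSP70 best known from testis, had the second smallest p of the list. It read 5.94, 5.97 and 5.97 in control and 5.79, 5.90 and 5.64 in treated cells. The groups did not overlap, and the treated arrays spread more (SD 0.13) than the controls (SD 0.02). The difference was -0.19 (95% interval -0.40 to 0.03; limma, unadjusted p = 0.0823). The probe set lay below the median of all probe sets.

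HSF1, the regulator of the response, read 7.80, 7.80 and 7.99 in control and 7.72, 7.82 and 7.83 in treated cells, a difference of -0.07 (95% interval -0.28 to 0.14). HSF1 protein is controlled after translation, so its transcript does not report its activity. DNAJB1 (HSP40), which HSF1 raises strongly in heat-shocked cells, read 10.87, 10.69 and 10.69 in control and 10.61, 10.85 and 10.71 in treated cells. Control array 1 was the highest and treated array 1 the lowest, the other arrays lay between them, and the difference was -0.03 (95% interval -0.27 to 0.21). HSPH1 (HSP110), an exchange factor of HSP70 and also an HSF1 target, read 11.29, 11.13 and 11.05 in control and 11.01, 11.12 and 11.23 in treated cells, a difference of -0.04 (95% interval -0.28 to 0.21).

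HSPA8 (HSC70), the constitutive cytosolic HSP70, read 13.55, 13.54 and 13.48 in control and 13.51, 13.55 and 13.55 in treated cells. It had the narrowest interval of all 38 members, -0.16 to 0.19 around a difference of 0.01. HSPB1 (HSP27), a small heat shock protein, read 10.12, 10.05 and 10.21 in control and 10.07, 10.13 and 9.86 in treated cells. Only treated array 3 lay below the controls, and the difference was -0.11 (95% interval -0.35 to 0.13), or -0.03 without that array. BAG3, the co-chaperone that directs clients to autophagy, read 8.26, 8.37 and 8.11 in control and 7.92, 8.22 and 8.17 in treated cells, a difference of -0.14 (95% interval -0.42 to 0.14). HSPA4, a relative of HSPH1, had a difference of -0.03.

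**Figure D3:**
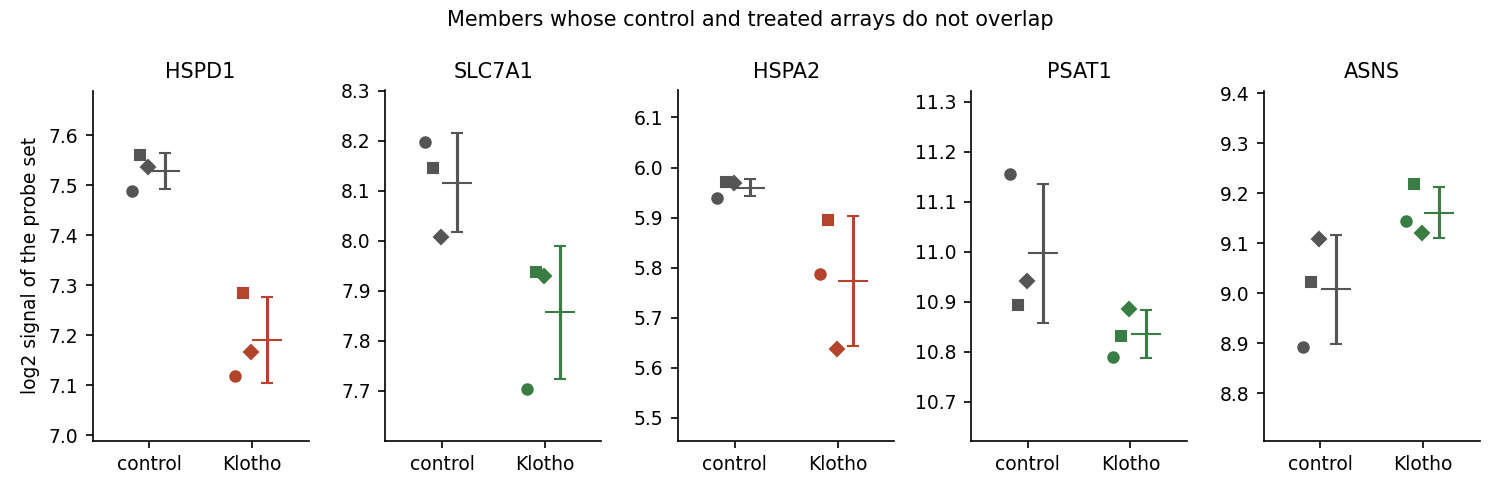
Log2 signal on each array for the 5 genes whose control and treated arrays do not overlap (circles, squares and diamonds are arrays 1, 2 and 3 of a group; bars are mean ± SD, n = 3); all panels span 0.7 on the vertical axis, which does not start at 0. HSPD1 shows the widest distance between its groups, and in PSAT1 the lowest control and highest treated value nearly meet.

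The ATF4 list held members on both sides. Of 14 measured genes 9 were lower and 5 higher, with a median of -0.04, and 7, 6 and 8 were lower under quantile normalization, median centring and cyclic loess (medians 0.00, 0.01 and 0.00). Without control array 2 the median was -0.11. ATF4 itself read 6.81, 6.76 and 6.90 in control and 6.68, 6.74 and 6.78 in treated cells, a difference of -0.09 (95% interval -0.28 to 0.10). Treated array 3 lay within the control range and the other treated arrays below it. ATF4 is controlled mainly at translation, so its targets carry more information than its transcript.

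For the targets that promote cell death or feedback, the control and treated arrays overlapped. DDIT3 (CHOP), a pro-apoptotic partner of ATF4, read 6.84, 6.71 and 6.59 in control and 6.72, 6.80 and 6.83 in treated cells, a difference of 0.07 (95% interval -0.15 to 0.29). TRIB3, a pseudokinase that restrains ATF4 and AKT, read 6.51, 6.39 and 6.45 in control and 6.60, 6.76 and 6.37 in treated cells. Treated arrays 1 and 2 lay above all controls and treated array 3 below them, and the difference was 0.12 (95% interval -0.16 to 0.40), or 0.22 without treated array 3. CHAC1, which degrades glutathione and is a sensitive ATF4 target, read 6.04, 5.72 and 6.09 in control and 5.98, 6.06 and 5.72 in treated cells. Each group had 1 low array, and the difference was -0.03 (95% interval -0.36 to 0.31).

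PPP1R15A (GADD34), the phosphatase subunit that reverses eIF2α phosphorylation, read 6.07, 6.19 and 6.18 in control and 5.96, 6.12 and 5.98 in treated cells, a difference of -0.13 (95% interval -0.33 to 0.08; limma, unadjusted p = 0.178). ATF3, a transcription factor raised by many stresses, read 4.65, 4.85 and 5.06 in control and 5.14, 5.14 and 4.62 in treated cells. Treated array 3 held the lowest value and the other treated arrays the highest, so the interval was wide, -0.32 to 0.55 around 0.12. Without treated array 3 the difference was 0.29. The mean signal of ATF3, 4.91, was the lowest of all members, and PPP1R15A also lay below the median probe set. SESN2 (sestrin 2), a stress-induced sensor of leucine that restrains mTORC1, read 7.02, 6.75 and 6.99 in control and 6.94, 6.99 and 6.86 in treated cells, a difference of 0.01 (95% interval -0.23 to 0.25).

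The amino acid genes gave the extremes of the list in each direction. ASNS, which makes asparagine and is the best studied target of amino acid shortage, read 8.89, 9.02 and 9.11 in control and 9.14, 9.22 and 9.12 in treated cells. All treated arrays were above all controls, by a small margin over control array 3. The difference was 0.15 (95% interval -0.06 to 0.36; limma, unadjusted p = 0.128), 0.19 to 0.20 under the other scalings, and 0.10 to 0.20 with 1 array left out. PSAT1, a serine synthesis enzyme, read 11.16, 10.89 and 10.94 in control and 10.79, 10.83 and 10.89 in treated cells. Its groups were apart only in the third decimal, and the difference was -0.16 (95% interval -0.39 to 0.07; limma, unadjusted p = 0.14), or -0.08 without control array 1. PHGDH, the first enzyme of the same route, had a difference of -0.05 (95% interval -0.29 to 0.19).

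SLC7A1 (CAT1), which imports arginine and lysine, read 8.20, 8.14 and 8.01 in control and 7.70, 7.94 and 7.93 in treated cells. All treated arrays were below all controls, treated array 1 most. The mean was 8.12 ± 0.10 in control and 7.86 ± 0.13 under Klotho (log2, SD, n = 3), with a difference of -0.26 (95% interval -0.50 to -0.02), or 0.835-fold. The unadjusted p in limma was 0.0406 and the adjusted p 0.998. It was between 0.0689 and 0.0723 under the other scalings, 0.0924 with the replicate number as a block, 0.092 with array weights, and between 0.0372 and 0.124 with 1 array left out. Without treated array 1 the difference was -0.18.

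The other transporters of the list showed smaller differences. SLC7A5 (LAT1) and SLC3A2 (4F2hc) form the heterodimer that exchanges leucine and other large neutral amino acids. SLC7A5 had a difference of -0.12 (95% interval -0.33 to 0.08) and SLC3A2 one of -0.10 (95% interval -0.29 to 0.09). The log2 distance of SLC7A5 from SLC3A2 within an array was -0.40 ± 0.05 (SD, n = 3) in control and -0.42 ± 0.06 in treated cells. SLC7A11 (xCT), which pairs with SLC3A2 to import cystine, read 7.40, 7.28 and 7.23 in control and 7.22, 7.34 and 7.32 in treated cells, a difference of -0.01 (95% interval -0.21 to 0.19).

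Further genes of the same programmes were read from lists that do not hold the members. None of 32 measured sensors, degradation and folding factors of the ER passed the adjusted threshold, and 0 had an unadjusted p under 0.05. As deposited 26 of them were lower and 6 higher (median -0.05), and 16 to 18 were lower under the other scalings (medians -0.01 to 0.00). The sensors ERN1, ATF6 and EIF2AK3 had differences of -0.04, -0.03 and -0.13. The members of smallest p were KDELR1 (-0.20, 95% interval -0.44 to 0.04) and KDELR3 (-0.19), receptors that return escaped ER proteins from the Golgi, and SELENOS (-0.18), a degradation factor. KDELR1 read 9.37, 9.21 and 9.16 in control and 8.92, 9.14 and 9.08 in treated cells, and was the 1 gene of the 32 whose groups did not overlap (3.12%, against 5.3% of all genes in that direction).

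Among 31 further measured cytosolic and mitochondrial chaperones 0 passed and 0 had an unadjusted p under 0.05, with 20 lower as deposited and 13 to 17 after rescaling. Several genes of this list were not measured, among them the HSP70 genes HSPA1A, HSPA1B and HSPA6, and HSP90AB1. Their probe sets also name other genes, so these arrays say nothing here on those transcripts. STUB1, the ubiquitin ligase CHIP (-0.21), HSPA1L, an HSP70 of testis (0.24), and LONP1, the mitochondrial protease (-0.14), had the smallest p. The groups did not overlap for LONP1, lower in treated cells, and for HSPB6, higher (0.07), each 3.23% of the list, against 5.3% and 2.59% of all genes. CHORDC1 was the gene whose interval reached beyond a 2-fold change (-0.51 to 1.02). HSP90AA1, the inducible HSP90, had a difference of 0.02 (95% interval -0.21 to 0.25). Among 31 further ATF4 and amino acid response genes 0 passed and 0 had an unadjusted p under 0.05, with 23 lower as deposited and 13 to 17 after rescaling. Of these 31 genes, 10 lay below the median probe set in mean signal, 4 of them also below the lower quartile. FGF21, a stress hormone (0.16), EIF2AK2, the kinase PKR (-0.25), and ATF5, a relative of ATF4 (0.12), had the smallest p. PCK2, a mitochondrial enzyme that makes phosphoenolpyruvate (-0.10), was the 1 gene of this list whose groups did not overlap, lower in treated cells (3.23%, against 5.3% of all genes).

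The lists moved with the arrays as much as with the groups. Taking each gene's deviation from its mean over the 6 arrays, the median ER gene lay at 0.06, -0.07 and 0.03 on the control arrays and at -0.06, 0.01 and 0.02 on the treated ones. The median heat shock gene lay at 0.06, 0.00 and -0.01 in control and at -0.11, 0.03 and -0.02 in treated cells. The median ATF4 gene lay at 0.09, -0.03 and 0.03 in control and at -0.04, 0.04 and -0.06 in treated cells. Control array 1 was highest for all 3 lists and for the median of all genes (0.05), and treated array 1 was lowest for the heat shock list and for all genes (-0.04). Treated array 3 was lowest for the ATF4 list under all 4 scalings. The part of these array-wide shifts in the single-gene values was not tested beyond the scalings and the arrays left out.

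**Figure D4:**
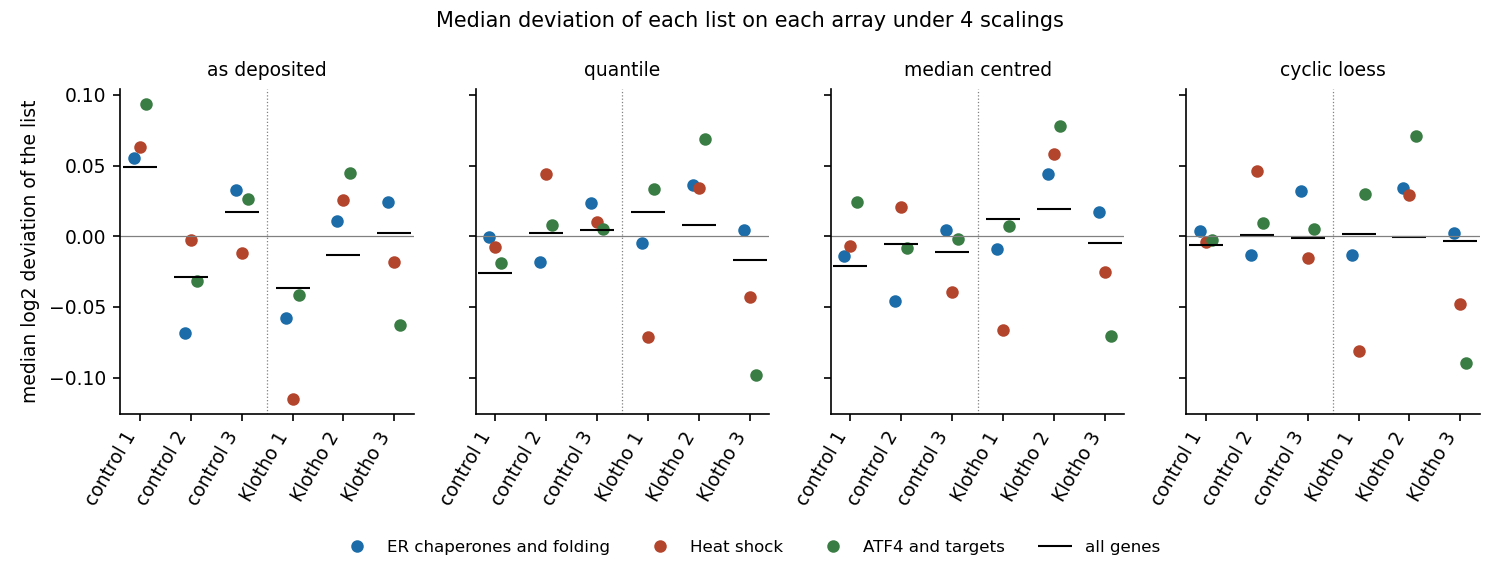
Median over each list of the log2 deviation from the gene's mean over the 6 arrays, for each array and for 4 scalings (panels); black dashes are the median of all genes, and the dotted line separates control from Klotho arrays. As deposited, control array 1 is highest for all 3 lists (0.06 to 0.09), and the ATF4 list is lowest on treated array 3 in every panel.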

How the data were processed

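The authors deposited log2 values, 1 per probe set and array, made with RMA per the submitters' processing notes; other steps and the genome build are not stated. The probe annotation's header names an Affymetrix exon array at the level of transcript clusters. Of 22011 probe sets 14432 name 1 gene, 2408 several and 5171 none. Of those with 1 gene, 14404 matched RefSeq (GRCh38.p14) by Entrez number. The probe set with the highest mean stood for a gene (14232 genes).

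All probe sets entered 1 fit in limma 3.58.1 (R 4.3.3, lmFit and eBayes), 2-sided, with Benjamini-Hochberg adjustment and a threshold of 0.05; unadjusted p under 0.05 is given as a description. The fit was tested on simulated data with differences larger than that of any member and no array-wide shifts. That test does not cover differences as small as those of the members. Precision is limited by the number of arrays. No scan dates were at hand to test as batches.

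Values on every array are given for a fixed set of regulators and known targets and for members whose groups did not overlap. They are also given for the 4 members of smallest p per list. CALR, CANX, DNAJC3 and HSPE1 were added outside these rules. Of further genes, the 3 of smallest p per list are named, with a few others chosen after their values were seen. Promoter windows came from RefSeq (GRCh38.p14), and elements were searched on both strands. The members and lists were chosen with earlier results of these data known. Alternatives were other scalings, filters, variance models, array weights, a replicate block, gene means and arrays left out.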

Additional observations from a re-analysis of the deposited data

How the results depend on the processing

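No member and no probe set passed the adjusted threshold under any of the 17 alternatives, of which 1, leaving out both control array 1 and treated array 3, was chosen after seeing the data. The count of members with an unadjusted p under 0.05 was 2 as deposited and 1 (HSPD1) with quantile normalization, median centring, cyclic loess, array weights, the replicate block, and the loss of both control array 1 and treated array 3. The range was 1 to 2 with 1 array left out, and SDF2L1 took the place of SLC7A1 without control array 2. Heat shock genes lower in treated cells numbered 8 as deposited, 5 with median centring and 5 to 9 with 1 array left out. The median of the ATF4 genes was -0.04, and -0.11 (without control array 2) to -0.01 with 1 array left out, and it reversed to 0.000215 with both of those arrays left out. Those of the ER genes ran from -0.05 to -0.01 and of the heat shock genes from -0.09 to -0.01 in the same analyses. Members that changed sign numbered 4, 8 and 5 with quantile normalization, median centring and cyclic loess, and 4 to 9 with 1 array left out; none of these had an unadjusted p under 0.05 on either side. Whether equal replicate numbers in the titles mark paired arrays is not stated. Deviations of same-numbered arrays from their group means correlated at -0.18, 0.06 and -0.14. The highest of all such correlations, 0.24, joined control array 1 to treated array 3. With so few arrays per group these correlations cannot decide whether the arrays are paired. With the replicate block the differences were the same by construction and 1 member had an unadjusted p under 0.05.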
